A study of Mus musculus with 20 samples.

Results

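The HoxB cluster is a run of 10 homeobox genes on mouse chromosome 11, Hoxb13, Hoxb9, Hoxb8, Hoxb7, Hoxb6, Hoxb5, Hoxb4, Hoxb3, Hoxb2 and Hoxb1. It was read here through a window of 245 kb that starts at position 96005001 of chromosome 11 in the mm9 build, with Hoxb13 at the low end and Hoxb1 at the high end. Every peak of the 10 deposited lists that shared at least 1 bp with this window was taken, which gave 468 peaks of 4480164 in all. Chromatin immunoprecipitation followed by sequencing (ChIP-seq) had been done on fibroblasts of C57BL/6 embryos at E13.5, grown in medium with 10% serum to passage 4. The genotypes are wild type (WT) and SS, a name that the labels leave unexplained. Both genotypes were assayed for the retinoblastoma protein pRb and the histone mark H3K27me3, each in arrested and proliferating cultures, and for Ezh2 in serum-deprived cultures. The labels describe arrest of the H3K27me3 and Ezh2 cultures as serum deprivation, 0.1% serum for 72 h, and for the arrested pRb cultures name confluence in one field and the serum treatment in another. All cells carry the same strain background, and each antibody, growth condition and genotype had 1 library, so replicate spread is unknown and no test was made.

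As background, Hox genes encode homeodomain transcription factors that give cells of the body axis their position. Their order on the chromosome follows the order in which they are used, with Hoxb1 acting in the hindbrain and Hoxb13 in the most posterior tissues. In cells where they are silent, Hox genes are textbook targets of Polycomb repressive complex 2, whose catalytic subunit Ezh2 trimethylates lysine 27 of histone H3, giving H3K27me3 over broad stretches. pRb, the retinoblastoma tumour suppressor, restrains the cell cycle by binding E2F transcription factors.

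The gene table used for names belongs to another assembly, GRCm38.p6, so genes were ordered by it but not placed within the mm9 window, and no peak was assigned to a single gene. Between Hoxb13 and Hoxb1 this table lists the 10 Hoxb genes, 6 long non-coding RNAs, 1 pseudogene and 2 microRNAs. Ttll6 and Calcoco2 are the nearest protein-coding neighbours beyond Hoxb13, and Skap1 is the nearest beyond Hoxb1. The RefSeq promoter table had an entry for 3 of the 10 members, Hoxb8, Hoxb4 and Hoxb1. Their 250 bases before the transcript start are shown because CpG-rich promoters are, as background, where Polycomb repressive complex 2 is usually recruited; CpG dinucleotides are in capitals. Positions are in GRCm38.p6 and cannot be compared with the mm9 positions of the peaks.
Hoxb8 promoter, GRCm38.p6 chr11:96281655-96281904, plus strand: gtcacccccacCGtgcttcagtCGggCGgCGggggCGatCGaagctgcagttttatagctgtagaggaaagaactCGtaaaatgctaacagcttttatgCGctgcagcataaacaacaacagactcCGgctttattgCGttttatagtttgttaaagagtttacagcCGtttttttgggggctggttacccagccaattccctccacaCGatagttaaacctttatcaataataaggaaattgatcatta
Hoxb4 promoter, GRCm38.p6 chr11:96318017-96318266, plus strand: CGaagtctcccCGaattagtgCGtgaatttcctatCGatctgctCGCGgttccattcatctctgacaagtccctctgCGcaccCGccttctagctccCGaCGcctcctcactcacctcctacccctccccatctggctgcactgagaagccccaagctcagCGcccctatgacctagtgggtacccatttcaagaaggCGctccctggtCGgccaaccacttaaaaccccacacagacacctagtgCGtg
Hoxb1 promoter, GRCm38.p6 chr11:96365508-96365757, plus strand: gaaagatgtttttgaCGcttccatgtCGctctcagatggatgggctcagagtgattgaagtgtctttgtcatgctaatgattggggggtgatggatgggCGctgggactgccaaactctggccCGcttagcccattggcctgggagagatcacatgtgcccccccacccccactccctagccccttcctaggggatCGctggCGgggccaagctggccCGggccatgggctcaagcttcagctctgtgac

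Hoxb8, known in the mouse for expanding myeloid progenitors, had 12 CpG in these 250 bases, more than 66.5% of the 32851 promoters in the table. Hoxb4, known for its use in expanding blood stem cells, had 14, more than 70.6% of them. Hoxb1, which sets the identity of the fourth hindbrain segment, had 7, close to the table's median of 6. The CpG were therefore denser at Hoxb4 and Hoxb8 than at Hoxb1, and no promoter of the 3 was CpG-poor against the table. The microRNA genes lie inside the cluster, Mir196a-1 between Hoxb13 and Hoxb9 and Mir10a just before the Hoxb4 promoter shown above. As background, miR-196a is known to cleave the Hoxb8 transcript. Their 5p mature sequences are shown with the seed, bases 2 to 8, in capitals, and the seeds differ.
mmu-miR-196a-5p of Mir196a-1: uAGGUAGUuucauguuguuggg
mmu-miR-10a-5p of Mir10a: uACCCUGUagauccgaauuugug

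The lists differ in kind, which touches each comparison of called coverage, that is, of the share of sequence lying in peaks. The arrested WT H3K27me3 list stands apart: it holds 656342 peaks with a median length of 138 bp, whereas the other H3K27me3 lists hold 143252 to 227847 peaks with medians of 439 to 723 bp. The Ezh2 lists hold 840543 and 1184135 peaks in WT and SS cells, and the 4 pRb lists 77809 to 650383. Depth is unknown from peak lists, the input libraries were not analysed here, and in bulk chromatin fewer cells with a mark and less of it per cell cannot be told apart.

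In proliferating cells the HoxB window was covered by H3K27me3 almost without a break. Proliferating WT peaks covered 99.0% of the window and proliferating SS peaks 98.4%, against 9.51% and 11.5% of the autosomes. Each list held just 2 peaks in the window. The WT peaks lay at 96005621-96083327 and 96084060-96248997, and the SS peaks at 96005560-96086815 and 96088029-96247809. The window limits lie close to the outer ends of these peaks, so the near-complete coverage is in part a matter of how the window was drawn and is not read as a result. The longer WT peak measured 164938 bp and the longer SS peak 159781 bp, and in each list 1 peak elsewhere was longer.

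The authors' enrichment values ranked these peaks near the top of their lists. The low-end peak of the proliferating WT list, on the Hoxb13 side, had a 7.48-fold enrichment over background and the high-end peak 5.81-fold. In the proliferating SS list the values were 8.56-fold and 6.69-fold. The low-end peak thus carried the higher enrichment in both genotypes. By -log10 q-value all 4 peaks lay above at least 99.7% of their lists, whose median enrichment was 2.59-fold in WT and 2.62-fold in SS cells.

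The pair of peaks in each list was split at a different place. In WT cells the uncovered break ran over 732 bp at 96083328-96084059, a stretch that SS peaks covered fully. In SS cells it ran over 1213 bp at 96086816-96088028, a stretch that WT peaks covered fully. Neither break is shared, and arrested WT peaks covered 0% of the first and 7.34% of the second. Arrested SS peaks covered 8.74% and 0% of them.

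In arrested cells the same window held many shorter H3K27me3 peaks. The arrested WT list had 117 peaks in it with a median length of 651 bp, and the arrested SS list 60 peaks with a median of 1046 bp. Arrested WT peaks covered 47.3% of the window and arrested SS peaks 64.5%, which was 6.32 and 10.0 times the share of the autosomes covered by the same list. Of 10079 autosomal tiles of the window's length, HoxB was exceeded by 1 in arrested WT cells and by 4 in arrested SS cells. HoxB thus ranked near the top of these tiles in both arrested lists. The window's limits lie close to the ends of the proliferating peaks, whereas the tiles were laid at fixed intervals. The ranking therefore favours HoxB in part and is a description only. Beside other long stretches taken at their own length, described below, its arrested SS coverage was the lowest. A 5 kb step of the window was covered to between 10.7% and 89.3% in arrested WT cells, with a median of 45.8%. In arrested SS cells the steps ranged from 0% to 100%, with a median of 65.4%, and 12 of 49 steps were covered in full. Over the autosomes 0.433% of steps were covered in full in that list. In arrested WT cells 0 of 49 steps were, against 0.0125% of the autosomal steps.

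**Figure D1:**
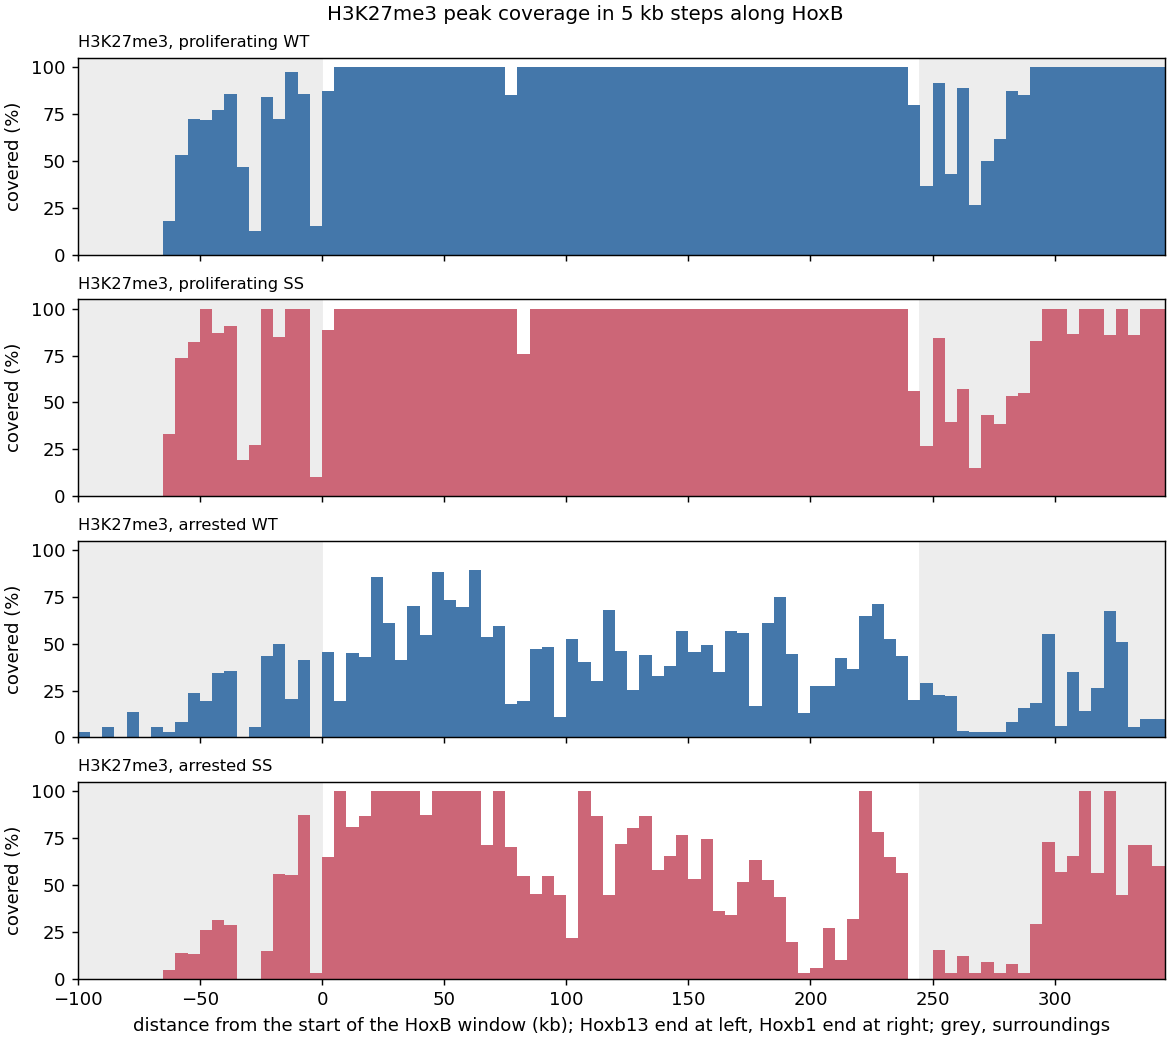
Share of each 5 kb step covered by H3K27me3 peaks (y axis, percent) against distance from the start of the HoxB window (x axis, kb), 1 panel per library, with 100 kb on each side in grey. The proliferating panels are filled across the window, the arrested WT panel is uneven throughout, and the arrested SS panel is filled near the Hoxb13 end and nearly empty in a block towards the Hoxb1 end.

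The longest arrested peaks lay at the Hoxb13 end. In arrested SS cells the peaks at 96021485-96045398 and 96046020-96073155 measured 23914 and 27136 bp, with 5.12-fold and 4.93-fold enrichment by the authors' values, and were also the highest-scoring of that list within HoxB. Their scores lay above 99.5% and 99.1% of the whole list. The third was a short peak of 995 bp at 96095926-96096920. The longest arrested WT peak, at 96052068-96058436, measured 6369 bp with a 7.46-fold enrichment and lay inside the longer of these SS peaks. It scored above 71.4% of the arrested WT list. The highest-scoring arrested WT peak was a short one of 1493 bp at 96049995-96051487 with a 14.6-fold enrichment, in the same SS peak, and 97.3% of that list scored lower. The next lay at 96140523-96140998 and 96036002-96037694, with 13.3-fold and 11.1-fold enrichment. The longest peak of each arrested list thus lay at the Hoxb13 end, as did the highest-scoring one. Of the window's peaks, 4 of 117 in arrested WT (3.42%) and 19 of 60 in arrested SS cells (31.7%) scored in the top 10% of their list. Other long SS peaks lay further on, with 10037 bp at 96109308-96119344 and 7919 bp at 96224270-96232188.

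The genotype comparison asked how H3K27me3 over HoxB differed between SS and WT cells. In arrested cells the SS list covered 17.2 percentage points more of the window than the WT list, while over the autosomes the difference was -1.02 points (6.45% against 7.47%). SS coverage was higher in 35 of the 49 steps and lower in 14. It was higher by at least 20 points in 24 of 49 steps, where 7.03% of the autosomal steps with a peak in either list passed this threshold. It was lower by at least 20 points in 8 steps, against 4.07% of the autosomal steps. This background is unlike the window. Steps covered to at least 50% were 20 of 49 in WT and 35 of 49 in SS cells, against 0.852% and 3.46% of all autosomal steps. A little-covered step has less room for a difference of 20 points. Of 23 other long H3K27me3 stretches, described below, 22 had a larger SS excess than HoxB. The size of the difference depended on the setting: with peaks within 1 kb merged it was 7.44 points and with lists cut to equal length 38.3 points. A stricter common score cutoff, set at the higher of the list medians, was added after the data were seen. It left no SS peak in the window, while WT peaks covered 34.8%. The highest SS score in the window was 5.82 and the WT list's median 8.51, so no SS peak there could pass. Over the whole lists 108 SS and 328174 WT peaks passed, so this cutoff cannot decide the direction.

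The genotype difference was not even along the cluster. The window was divided into 5 segments of 49 kb, a division chosen after the values were seen. From the Hoxb13 end on, arrested SS peaks covered 91.9%, 75.1%, 69.4%, 47.5% and 38.5% of the segments. Arrested WT peaks covered 54.6%, 51.1%, 41.4%, 48.6% and 40.7%. SS coverage thus declined from the Hoxb13 end towards the Hoxb1 end, while WT coverage as called moved within a range of 40.7% to 54.6%. With lists cut to equal length WT peaks covered 39.5%, 29.7%, 20.7%, 21.4% and 19.8% of the segments. Merging peaks within 1 kb gave 77.0% in the first WT segment and 58.4% in the last. A higher coverage at the Hoxb13 end was thus not particular to SS cells. The SS list stood 37.4, 24.0 and 28.1 points above WT in the first 3 segments, and -1.05 and -2.22 points away from it in the last 2. With lists cut to equal length the last 2 segments were also higher in SS, by 26.1 and 18.7 points. At the stricter common cutoff all 5 were lower in SS, because no SS peak in the window passed it. The authors' fold enrichment, weighted by covered length and read within each list, was also highest in the first segment, 8.28 in the WT and 4.75 in the SS list, against 6.77 to 7.09 and 3.45 to 4.36 in the other segments.

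**Figure D2:**
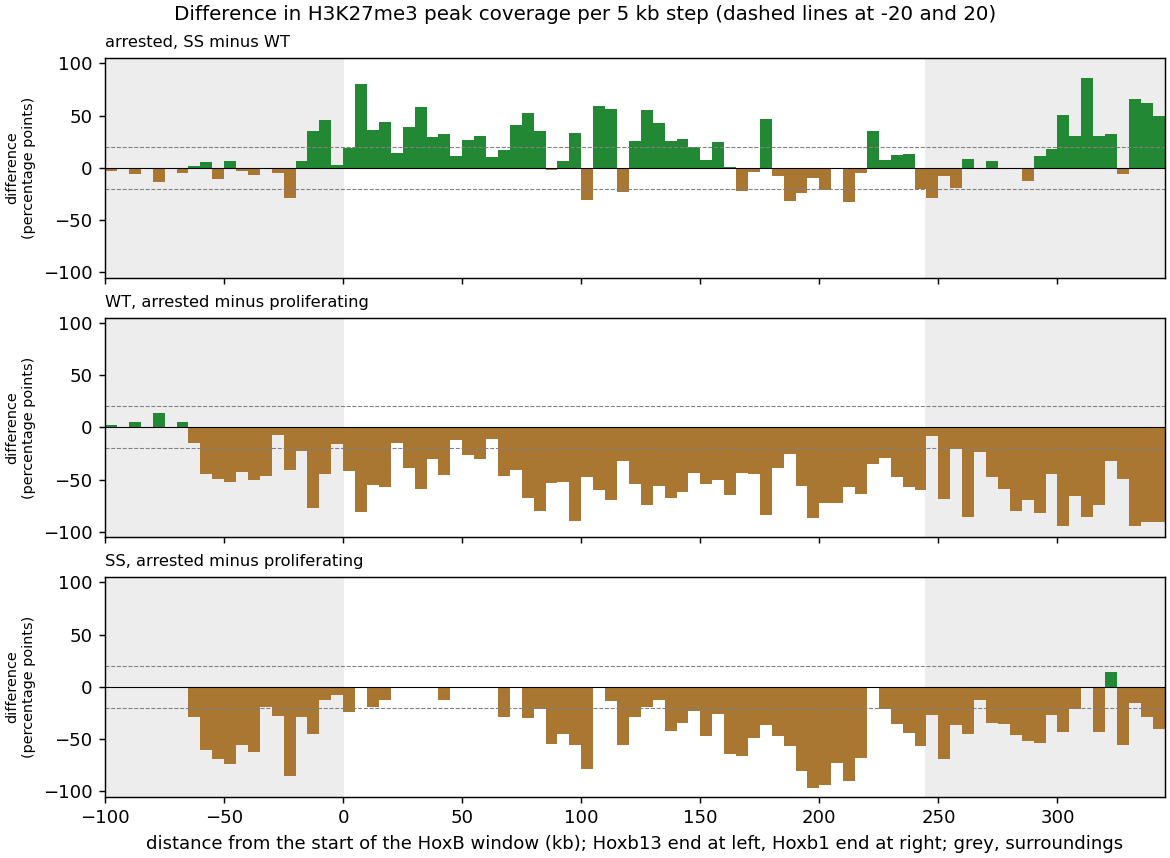
Difference in H3K27me3 coverage per 5 kb step (y axis, percentage points; dashed lines at -20 and 20) against distance from the start of the HoxB window (x axis, kb), with 100 kb on each side in grey. Within the window, the largest SS gain in arrested cells, 80.5 points, sits at the Hoxb13 end and the largest loss, -32.7 points, towards the Hoxb1 end; a larger gain lies in grey beyond the Hoxb1 end, and the lower panels show losses of coverage with arrest in both genotypes.

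The 5 steps with the largest SS gain in arrested cells lay between 96010001 and 96135000. At 96010001-96015000 coverage was 19.5% in WT and 100% in SS cells, a difference of 80.5 points. The steps at 96110001-96115000 and 96035001-96040000 went from 40.5% and 41.5% in WT to 100% in SS cells. Those at 96115001-96120000 and 96130001-96135000 were 56.7 and 54.9 points higher in SS cells. The steps with the largest SS loss lay further towards Hoxb1 or in the middle. At 96215001-96220000 coverage was 42.5% in WT and 9.82% in SS cells, and at 96190001-96195000 it was 74.8% and 43.6%. The other losses among the leading 5 were at 96105001-96110000, 96195001-96200000 and 96120001-96125000, with differences of -31.1, -24.5 and -23.0 points and SS coverage of 21.6%, 19.9% and 44.8%.

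Base by base, 33.2% of the window was covered in both arrested lists, 31.3% in SS alone, 14.1% in WT alone and 21.4% in neither. SS peaks covered 70.2% of what WT peaks covered and 59.3% of what they left uncovered. The lists thus differed in where they left breaks. Arrested WT peaks left 11 breaks of at least 2 kb, the longest of 2974 bp at 96208712-96211685. Arrested SS peaks left 10, of which 5 followed each other closely between 96195366 and 96222546. The longest of these ran over 7055 bp at 96215492-96222546, where WT peaks covered 30.5%, and the next over 5003 bp at 96207513-96212515, where WT peaks covered 28.2%. The remaining 3 of this group measured 3987, 2951 and 4137 bp, with WT coverage of 44.7%, 5.49% and 24.0%. On the Hoxb1 side of this group the SS peak of 7919 bp resumed the coverage. Over the 49 steps the arrested lists were moderately alike, with Pearson's r of 0.45 and Spearman's rho of 0.41; neighbouring steps share peaks, so this is a description.

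In proliferating cells the genotypes were nearly the same over HoxB. The difference in coverage, SS minus WT, was -0.656 points, and the coverage was equal in 45 of 49 steps. Of the 49 steps, 2 were lower in SS by at least 20 points, against 4.59% of the autosomal steps with a peak in either list. One held the SS break, at 96085001-96090000, with 75.7% in SS and 100% in WT cells, and the other the Hoxb1-side end of the peaks, in the last step of the window, with 56.2% and 79.9%. No step was higher in SS by that much, where 16.3% of the autosomal steps were; a step already covered in full in WT cannot gain.

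The mark did not stop at the window in proliferating cells. Proliferating WT peaks covered 39.7% of the 100 kb beyond the Hoxb13 end and 83.5% of the 100 kb beyond the Hoxb1 end, and SS peaks 45.4% and 72.7%. The 5 kb step just before the window was covered to no more than 15.5% in any of the 4 lists, and the step just after it to no more than 36.9%. Coverage in both proliferating lists thus dipped just outside both ends of the window and was higher again in the steps next to those. In arrested cells the low side was covered to 15.6% in WT and 16.7% in SS cells and the high side to 20.3% and 39.2%. The SS list was thus also the higher on the high side, on which the table's next protein-coding gene is Skap1. Where the stretch ends depended on how far apart peaks may lie to be joined. With peaks at most 5 kb apart joined, it ran over 331 kb at 95940810-96271929 in proliferating WT cells, 577 kb at 96005560-96582090 in proliferating SS cells, 261 kb at 96006902-96267959 in arrested WT cells and 226 kb at 95981266-96207512 in arrested SS cells. These edges moved with the distance allowed and are not compared between genotypes.

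**Figure D3:**
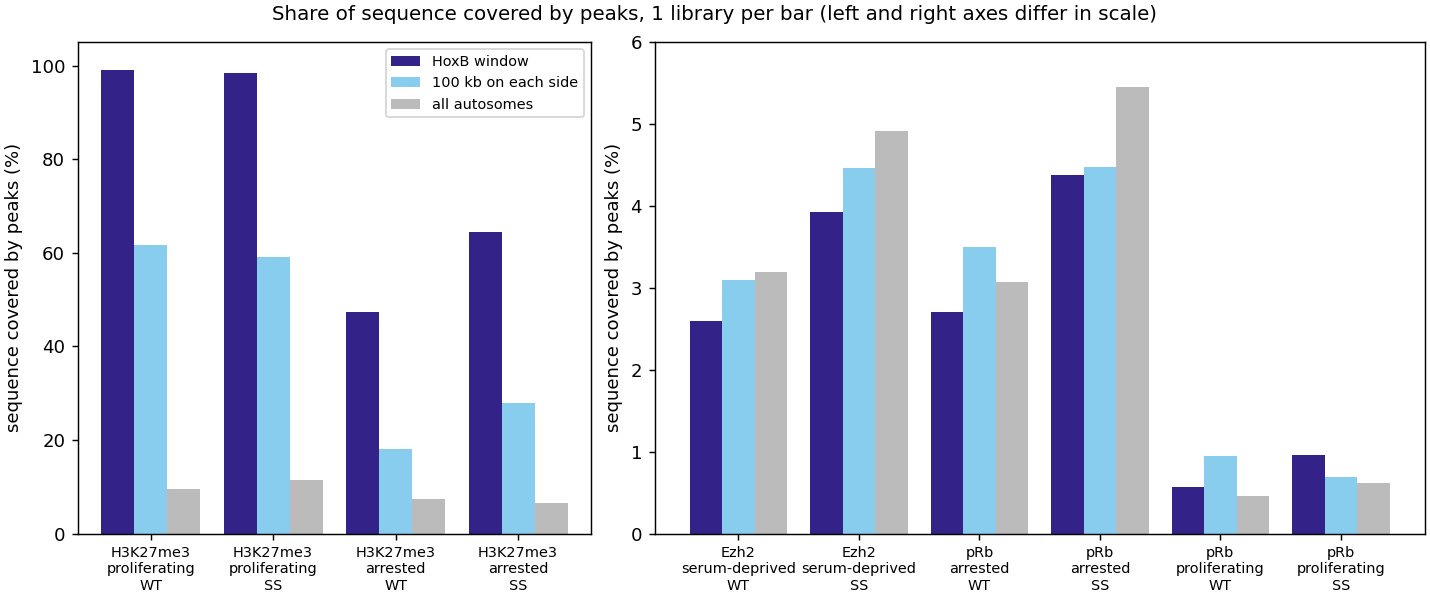
Share of sequence covered by peaks (y axis, percent; scales differ between panels) in the HoxB window, in the 100 kb on each side and over all autosomes, for each of the 10 libraries (x axis). H3K27me3 covers the window more than its surroundings and the autosomes in all 4 libraries, whereas Ezh2 and pRb coverage stays below 6% everywhere.

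HoxB was set beside other long autosomal H3K27me3 stretches, the merged peaks of the proliferating lists of at least 100 kb, of which there were 24. The HoxB stretch, at 96005560-96248997, was the longest of them with 243 kb. Its arrested WT coverage, 47.6%, was above the median of the 23 others, 42.6%. Its arrested SS coverage, 64.9%, was below all 23, which ranged from 66.3% to 90.8% with a median of 80.0%. The stretch nearest to it in arrested SS coverage lay on chromosome 2 at 74476009-74616193, with 66.3%, and the next on chromosome 15 at 102691982-102909341, with 67.2%, and on chromosome 6 at 52110166-52232917, with 69.3%. The SS excess over WT was 17.3 points at HoxB and between 16.4 and 49.9 points at the others, with a median of 39.2. The lowest excess was that of the chromosome 15 stretch, with HoxB next. Then came the chromosome 6 stretch, with 21.0 points, and the chromosome 2 stretch, with 23.7 points. A low arrested SS coverage and a low SS excess were thus not particular to HoxB. The stretches were chosen after values were seen, were not assigned to genes, and no test of this difference was made.

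**Figure D4:**
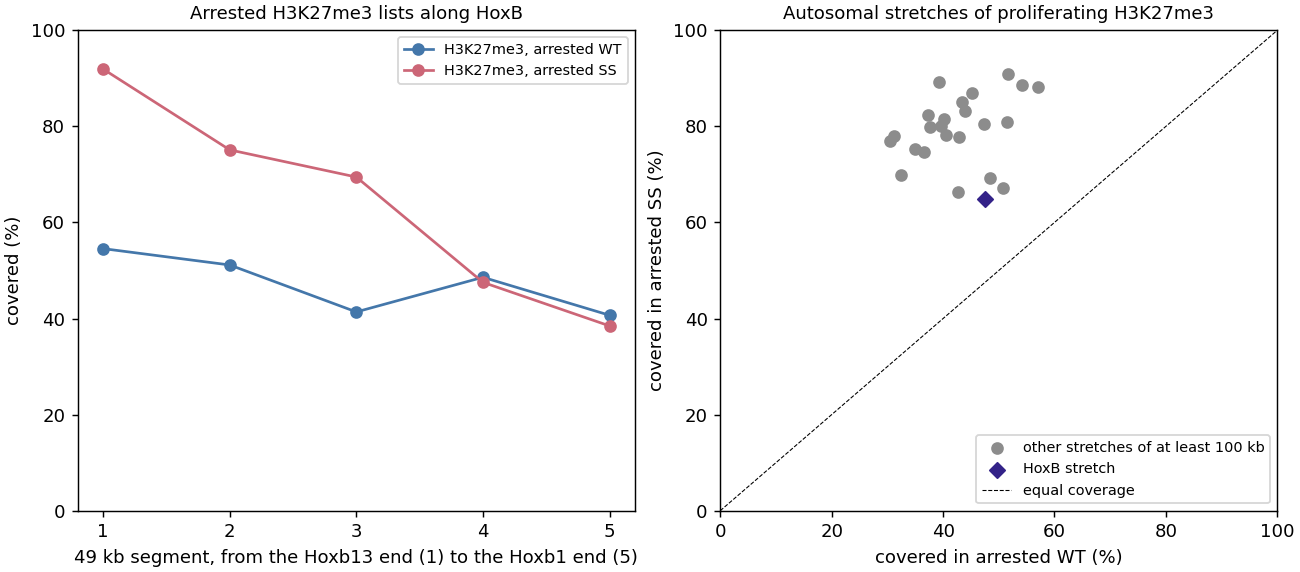
Left, share covered by arrested H3K27me3 peaks (y axis, percent) in 5 segments of 49 kb from the Hoxb13 end to the Hoxb1 end (x axis). Right, coverage in arrested SS cells (y axis, percent) against arrested WT cells (x axis, percent) for the HoxB stretch (diamond) and 23 other autosomal stretches of at least 100 kb; the HoxB stretch has the lowest SS coverage, 64.9%, and all points lie above the line of equal coverage.

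The next comparison set arrested beside proliferating cells of the same genotype; it uses the same 4 H3K27me3 libraries. Coverage of the window by called peaks went from 99.0% in proliferating to 47.3% in arrested WT cells, a difference of -51.8 points, and from 98.4% to 64.5% in SS cells, a difference of -33.9 points. Over the autosomes the differences were -2.03 points in WT and -5.03 points in SS cells. In WT cells 46 of 49 steps were lower by at least 20 points, against 14.4% of the autosomal steps with a peak in either list. In SS cells 31 of 49 were, against 29.1%. No step was higher by that much in either genotype, where 3.47% of the autosomal steps were in WT and 1.91% in SS cells. A window covered almost in full can only lose, so these counts are not read against the background further, and the share lying in called peaks does not measure how much mark a cell carries.

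In SS cells the largest losses with arrest lay together near the Hoxb1 end. Coverage was 100% in proliferating SS cells and 2.90%, 5.98% and 9.82% in arrested SS cells at 96200001-96205000, 96205001-96210000 and 96215001-96220000. The remaining 2 of the leading 5 were at 96195001-96200000, with 19.9% left, and 96105001-96110000, with 21.6% left. In WT cells the 5 largest losses were spread over the window, at 96100001-96105000, 96200001-96205000, 96180001-96185000, 96010001-96015000 and 96085001-96090000. There the share left in arrested WT cells was 10.7%, 13.0%, 16.7%, 19.5% and 19.6%. The step at 96200001-96205000 was among the leading 5 in both genotypes. In SS cells 12 steps were covered to 100% in both growth conditions, most of them towards the Hoxb13 end, with 96110001-96115000 and 96225001-96230000 the farthest from it.

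Ezh2 peaks, in contrast to the mark that Ezh2 makes, showed no excess over HoxB beyond counting error. The window held 72 Ezh2 peaks in WT and 96 in SS cells, covering 2.60% and 3.92% of it, whereas the autosomes were covered to 3.20% and 4.91%. The 23 other long H3K27me3 stretches described above had median Ezh2 coverages of 3.30% in WT and 4.72% in SS cells. These medians also lay near the autosomal shares, so the lack of an Ezh2 excess was not particular to HoxB. Peak density was 294 per Mb in WT and 392 per Mb in SS cells. This was 0.897 times (95% exact Poisson interval 0.702 to 1.13) and 0.851 times (0.689 to 1.04) the autosomal density, and the intervals, which cover counting error only, hold 1 in both. Most of these peaks were as short as the list allows: 45 of 72 in WT had the list's shortest length of 50 bp and 56 of 96 in SS that of 51 bp. The median lengths of the whole lists were also 50 and 51 bp, so this is a trait of the lists. The longest were 255 bp at 96242432-96242686 in WT and 358 bp at 96023577-96023934 in SS cells. Peak numbers in the window were 1.33 times higher in SS than in WT, against 1.41 times for the entire lists.

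The highest-scoring Ezh2 peaks within HoxB lay at different places in WT and SS cells. In WT cells they lay at 96062220-96062273, 96204696-96204862 and 96006291-96006340, with 6.45-fold, 5.12-fold and 5.02-fold enrichment by the authors' values. In SS cells they lay at 96125324-96125378, 96179616-96179666 and 96073827-96073877, with 6.17-fold, 6.58-fold and 6.52-fold. None of the 6 overlapped an Ezh2 peak of the other genotype. Ezh2 peaks were short and covered little of the window in either list, so this is not read as a result. Of the 72 WT peaks 4 overlapped an SS peak, 5.56% (95% Wilson interval 2.18 to 13.4), while SS peaks covered 3.92% of the window. The shared WT peaks lay at 96028898-96028947, 96038468-96038721, 96233386-96233510 and 96242432-96242686, and the shared sequence measured 19 to 119 bp.

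For pRb, too, no density over HoxB differed from that over the autosomes beyond counting error, which is wide for the proliferating lists. The window held 40 peaks in arrested WT, 53 in arrested SS, 10 in proliferating WT and 16 in proliferating SS cells. Relative to the autosomal density of the same list this was 1.00 times (0.718 to 1.37), 0.866 times (0.648 to 1.13), 1.32 times (0.632 to 2.42) and 1.54 times (0.881 to 2.5), with intervals that all hold 1. Peaks covered 2.71% and 4.38% of the window in arrested WT and SS cells and 0.571% and 0.958% in proliferating WT and SS cells. No step differed by 20 points or more in any Ezh2 or pRb comparison. None could, because the highest step coverage in any of these lists was 16.3%, so this is not read as a result. Of the autosomal steps, 0.205% were higher in SS by that much for Ezh2, 0.921% for arrested pRb and 0.0137% for proliferating pRb. The shares that were lower in SS by that much were 0.0133%, 0.0507% and 0.00588%. With arrest 0.207% were higher and 0.000959% lower for pRb in WT cells, and 1.59% higher and 0.00259% lower in SS cells. The arrested lists held 4.00 and 3.31 times the proliferating number of pRb peaks in the window in WT and SS cells, below the 5.46 and 6.11 times of the whole lists. With lists cut to equal length the pRb coverage differences with arrest were -0.227 points in WT and -0.2 points in SS cells, and that between genotypes in arrested cells was -0.369 points. The window's peaks were short, with medians of 136 to 165 bp and a longest of 456 bp at 96052972-96053427 in arrested SS cells.

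**Figure D5:**
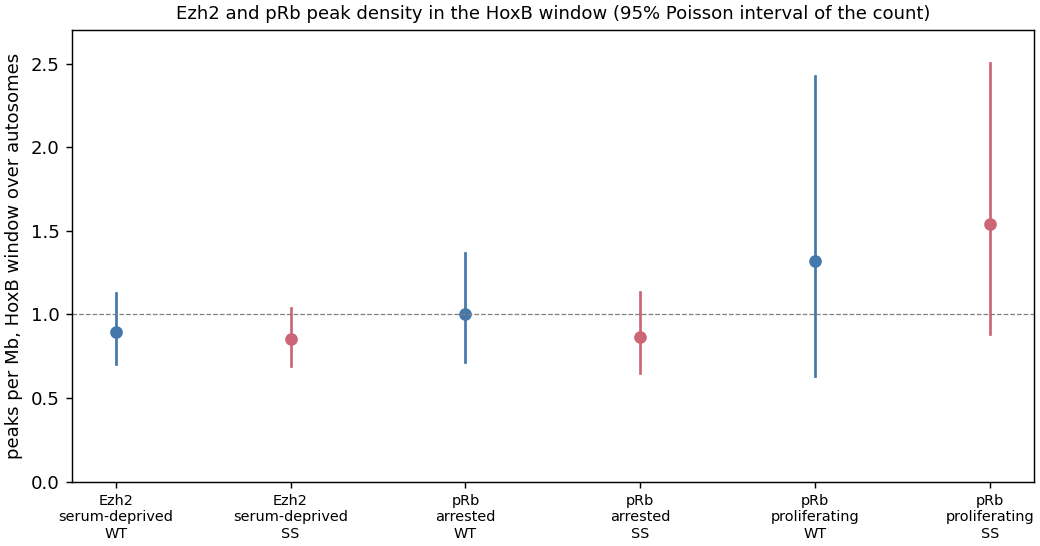
Peaks per Mb in the HoxB window divided by peaks per Mb over the autosomes of the same list (y axis) for the 2 Ezh2 and 4 pRb libraries (x axis); points are the ratios and lines the 95% exact Poisson interval of the window's count. All 6 lines cross the dashed line at 1.

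The highest-scoring pRb peaks also lay at different places in each list. In arrested WT cells the leading peaks were at 96197371-96197510, 96155283-96155421 and 96247795-96247930, with authors' scores of 316, 268 and 242. In arrested SS cells they were at 96116421-96116606, 96198881-96199034 and 96220164-96220313, with scores of 495, 366 and 311. None of these 6 had a peak of another pRb list or of an Ezh2 list at the same place. No pRb or Ezh2 list covered more than 4.38% of the window. In proliferating cells the leaders were at 96115512-96115602, with a score of 37.0, in WT and at 96007294-96007538, with 43.8, in SS cells. The first of these overlapped a WT Ezh2 peak. The leading arrested SS peak scored above 99.2% of its list and the leading arrested WT peak above 98.0%, so HoxB held no pRb peak at the very top of either list.

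Few pRb peaks were shared between lists. The other lists' peaks also covered little of the window, so this is not read as a result. Of 40 arrested WT peaks 3 overlapped an arrested SS peak, 7.50% (2.58 to 19.9), where SS peaks covered 4.38% of the window. They lay at 96044068-96044225, 96073169-96073304 and 96235211-96235346 and shared 23, 65 and 124 bp with their SS counterparts. None of the 10 proliferating WT peaks overlapped a proliferating SS peak (0% to 27.8%). None of the 40 arrested WT or 53 arrested SS peaks overlapped a proliferating peak of its genotype. Proliferating pRb peaks covered 0.571% of the window in WT and 0.958% in SS cells. Peaks of pRb and Ezh2 shared sequence at 2 of 40 arrested WT and 4 of 53 arrested SS pRb peaks, 5.00% (1.38 to 16.5) and 7.55% (2.97 to 17.9). Ezh2 peaks covered 2.60% of the window in WT and 3.92% in SS cells.

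The last comparison asked whether pRb or Ezh2 peaks within HoxB overlapped H3K27me3 peaks by at least 1 bp. In arrested WT cells 22 of 40 pRb peaks did, 55.0% (39.8 to 69.3), and 46 of 72 Ezh2 peaks, 63.9% (52.4 to 74.0), where H3K27me3 covered 47.3% of the window. In arrested SS cells 42 of 53 pRb peaks did, 79.2% (66.5 to 88), and 70 of 96 Ezh2 peaks, 72.9% (63.3 to 80.8), where the mark covered 64.5%. A peak touches covered sequence more readily than a single base does, so the covered share is a low point of reference. With at least 50% of a peak required to be covered, the arrested SS pRb share was 66.0%. The arrested WT pRb share stayed at 55.0%, and the Ezh2 shares were 59.7% in WT and 69.8% in SS cells. In proliferating cells all 10 WT and all 16 SS pRb peaks overlapped H3K27me3, in a window that the mark covered almost in full.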

How the data were processed

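The sources were 10 deposited peak lists in the mm9 build, 1 per antibody, growth condition and genotype, from chromatin fixed with EGS and formaldehyde and sonicated, per the labels' protocols. The submitters' processing notes name Bowtie2, MACS2, HOMER and bedtools, without roles or versions. In the H3K27me3 and Ezh2 lists the authors deposited a score, a fold enrichment and -log10 p and q-values per peak, in the broad-peak layout of MACS2. In the pRb lists the authors deposited a score whose unit is not given in the sources used here. Pooling of samples and thresholds are not given there either. These values were used within a list, except that the alternatives with a common score cutoff applied 1 score to both lists of a comparison. The labels name 5 antibodies for pRb.

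The covered share was computed as the percentage of bases lying in at least 1 peak, in the window, in 100 kb on each side, in 5 kb steps, and over the 19 autosomes. A step was counted as higher or lower at a difference of at least 20 percentage points, among steps with a peak in either list; the named steps were the 5 largest differences on each side. Overlap meant at least 1 bp. Wilson intervals of shares and exact Poisson intervals of counts, at 95%, cover counting error only. Depth is unknown. The step count was tested on simulated lists. The window, lists and measures were chosen with earlier results of these data known. Alternatives covered list length, score cutoffs, peak length, merging, step size and position, thresholds and trimming. The 10 inputs were not analysed here. Values were computed in Python 3.11.15 with pandas 2.3.3 and numpy 2.4.6, intervals with scipy 1.17.1, and plots drawn with matplotlib 3.10.9.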

Additional observations from a re-analysis of the deposited data

Results flagged for a closer look

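H3K27me3 coverage of HoxB was higher in SS than in WT cells under arrest and nearly equal between the genotypes in proliferation. The SS list covered 17.2 percentage points more of the window than the WT list in arrested cells (64.5% and 47.3%), and the difference in proliferating cells was -0.656 points (98.4% and 99.0%). Each value rests on 1 library per genotype, and the difference between the growth conditions was not tested. Both proliferating lists covered nearly the whole window, which leaves little room for a gain there. At the stricter common score cutoff the arrested difference was -34.8 points, but no SS peak in the window passed it. Over the whole lists that cutoff left 108 SS and 328174 WT peaks, so it cannot decide the direction.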

How the results depend on the processing

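Of the values recomputed under other settings, 267 stayed within the margin set for each, 50 moved beyond it and 6 reversed; of the segment values 24 stayed within it and 6 reversed. The margin is wide for coverage, a 95% binomial interval over 49 steps, and takes in Ezh2 and pRb coverages and differences of 0 with peaks of at least 500 bp. No paired analysis was possible because each group had 1 library and the labels give no replicate numbers. For arrested H3K27me3, SS minus WT, cutting the lists to equal length gave 38.3 points with 37 steps gained and 2 lost. A stricter common score cutoff, added after the data were seen, gave -34.8 points with 0 gained and 33 lost: it left 108 SS and 328174 WT peaks. Merging peaks within 1 kb gave 7.44 points. Shifted steps lost 3, 10 kb steps lost 1, and a threshold of 40 points gave 10 gained and 0 lost. In segments 1 to 3 the stricter cutoff gave -45.8, -38.0 and -27.9 points. Equal lengths gave 26.1 and 18.7 points in segments 4 and 5, and keeping the higher-scoring peaks gave 8.60 points in segment 5, whereas merging gave -6.31 and -16.6 points in segments 4 and 5. For proliferating H3K27me3, a threshold of 10 points gave 1 step gained, and shifted steps and a threshold of 40 points both gave 0 lost. Arrest minus proliferation in WT came to -86.9 points at equal lengths and -32.2 points after merging, and in SS 20 steps were lost at a threshold of 40 points. Merging raised arrested WT H3K27me3 coverage to 67.2% and Ezh2 SS coverage to 10.3%.

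Equal list lengths reversed the pRb difference in arrested cells, SS minus WT, to -0.369 points, and the pRb differences with arrest to -0.227 points in WT and -0.200 points in SS cells. The proliferating pRb difference was -0.130 points in the higher-scoring part of the lists and -0.0743 points at the stricter cutoff. A threshold of 10 points gave 1 Ezh2 step gained, 4 gained and 1 lost for arrested pRb, and 1 and 5 gained with arrest for pRb in WT and SS cells. With peaks of at least 500 bp all 6 relative densities of Ezh2 and pRb were 0, and in the higher-scoring part those of proliferating pRb were 1.85 in WT and 0.769 in SS cells. With at least 50% of a peak covered, pRb and Ezh2 shared 0% of peaks in both genotypes, arrested SS pRb peaks in H3K27me3 were 66.0%, arrested pRb peaks shared between genotypes 2.5% of WT and 1.89% of SS, Ezh2 WT peaks shared 0%, and arrested H3K27me3 peaks shared 63.2% of WT and 45.0% of SS.

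The edges of the joined H3K27me3 stretch, in kb from the window start, moved with the distance allowed, apart from the low edges in proliferating WT and arrested SS and the high edge in proliferating SS cells at 10 kb. Joining at 1 kb gave 0.62 and 244.0 in proliferating WT, 83.0 and 242.8 in proliferating SS, 34.8 and 73.6 in arrested WT, and for arrested SS cells 1.03 and 81.4. Joining at 10 kb moved the high edge to 582 in proliferating WT, 631 in arrested WT and, for arrested SS, 239.7, and the low edge to -64.9 in proliferating SS and -76.0 in arrested WT cells. The causes were not tested. Peak lists hold no depth, so what a caller missed for want of reads cannot be told from what was absent.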
